A study of Astyanax mexicanus with 6 samples.

Results

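The interferon response and RNA sensing genes were described in SFL and CFL, liver-derived cell lines of the Mexican tetra *Astyanax mexicanus*. The genes were chosen by their symbols in the expression table, which took in 58 of 27420 genes. They were the rows named for isg15, isg20, mx, mov10, ifi, ifit, rsad2, irf, stat, jak, adar, ifih1, dhx58, eif2ak2, cgas, sting, tbk1, ikbke, trim25 and samhd1. The symbols used no measured value, but the set was put forward after the levels in these same libraries had been seen. The differences between the lines are therefore given gene by gene as a description, and the number of genes that differed is not offered as evidence about the set. The symbols also took in irf2bp1, irf2bp2a, irf2bp2b and irf2bpl, which name proteins that bind IRF2 or resemble those that do, the adarb genes and ifitm5. The irf2bp and adarb genes are described apart, ifitm5 was too low to be tested, and all of them count in the totals. The symbols mavs, ddx58, tyk2, usp18, oas, trex and crfb were part of the same rule and matched no row under these names, and those genes were not analysed here.

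SFL was derived from livers of surface fish and CFL from livers of Pachón cavefish, both about 150 days post fertilization. Pachón fish were starved before the dissection and surface fish were not, and the lines were cloned by serial dilution and grown in medium with insulin, epidermal growth factor and fish and bovine sera. CFL was described as hyperdiploid. No virus, interferon or other stimulus is named for either line. Poly(A) RNA was sequenced from 3 SFL cultures (replicate 1 at passage 45, replicates 2 and 3 at passage 46) and from 3 CFL cultures (replicate 1 at passage 50, replicates 2 and 3 at passage 51). The libraries of a line were cultures at successive or equal passages and not separate fish, and whether they came from 1 clone is not stated, so p-values measure only the spread between these cultures. Line, fish, clone and passage number cannot be told apart.

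Interferons are secreted proteins that cells make on sensing viral nucleic acid. In the cytosol, RIG-I, MDA5 (the product of *ifih1*) and LGP2 (*dhx58*) bind viral RNA, while cGAS binds DNA and signals through STING. These routes meet at the kinases TBK1 and IKKε, which activate the transcription factors IRF3 and IRF7, and these switch on interferon genes. Secreted interferon binds its receptor on the same or a neighboring cell, and receptor-bound Janus kinases (JAKs) phosphorylate STAT proteins, STAT2 among them. These join IRF9 and switch on interferon-stimulated genes, among them *isg15* and the *mx* genes. Many of the sensors, STATs and IRFs are interferon-stimulated themselves.

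Levels are given in TPM, an abundance scaled to transcript length and to the same fixed total in each library. Differences are SFL minus CFL in log2(TPM + 1), given as log2 fold changes with a standard error (SE). A negative value means a lower level in SFL, and the added 1 shrinks the change of weakly expressed genes. Adjusted p-values (Benjamini-Hochberg) are from limma, fitted to the 18489 genes that reached 0.2 TPM in any library. A gene was called where adjusted p was below 0.05 and the fold change on this log2(TPM + 1) scale was at least 2, so that genes with few TPM can differ more than 2-fold in TPM and not be called. Depth is unknown for these values, so no counting error can be given. The number of genes reaching 1 TPM was 13390 to 13721 in SFL libraries and 13254 to 13458 in CFL libraries. Of 14 hepatocyte marker rows, 9 were under 1 TPM in all 6 libraries, *hnf4a* among them. The list summed to 11.1 to 19.9 TPM in SFL, against 2.47 to 4.83 TPM in CFL. Of its 8 tested rows, 4 were higher in SFL (11.7% of all tested genes), 1 was lower in SFL (8.88% of all tested genes) and 3 were not called. The row lower in SFL was *gc*, with 0.14, 0.26 and 1.26 TPM in SFL, against 3.91, 3.61 and 1.93 TPM in CFL.

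Most of the difference was in one direction. Of the 58 genes, 52 passed the filter, 23 of them were lower in SFL and 2 were higher in SFL. Without the irf2bp and adarb genes and *ifitm5*, 45 passed, 21 were lower in SFL and 0 were higher, with a median log2 fold change of -0.93. Over all tested genes, 8.88% were called higher in CFL and 11.7% higher in SFL. The values of SFL and CFL did not overlap in 41 genes, with CFL above in 31 (23.1% of all tested genes) and SFL above in 10 (29.8% of all tested genes). The median log2 fold change over the 52 genes was -0.88, against 0.07 over all tested genes, and it was -0.82 without the 2 genes listed at 0 TPM in every SFL library. Of the 52 genes, 6 passed the filter through CFL alone and 1 through SFL alone, where they were bound to have their highest value. Those passing through CFL alone were *jak3*, *irf10*, *irf4a*, *mxe*, *MX1* and the *isg15* row ENSAMXG00000039531. All 6 count in the median of -0.88, and *jak3*, *irf10*, *irf4a* and *mxe* count in that of -0.82 as well. The set was put forward after its levels had been seen, so these medians are a description only. The gene passing through SFL alone was *adarb2*. The 6 genes that were not tested stayed under 0.2 TPM in every library (*irf1a*, *irf4b*, *ifitm5*, *mxf* and *rsad2* among them). Summed over the 58 genes, the level was 642, 698 and 896 TPM in SFL replicates 1, 2 and 3, against 2056, 2148 and 1367 TPM in CFL replicates 1, 2 and 3.

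**Figure D1:**
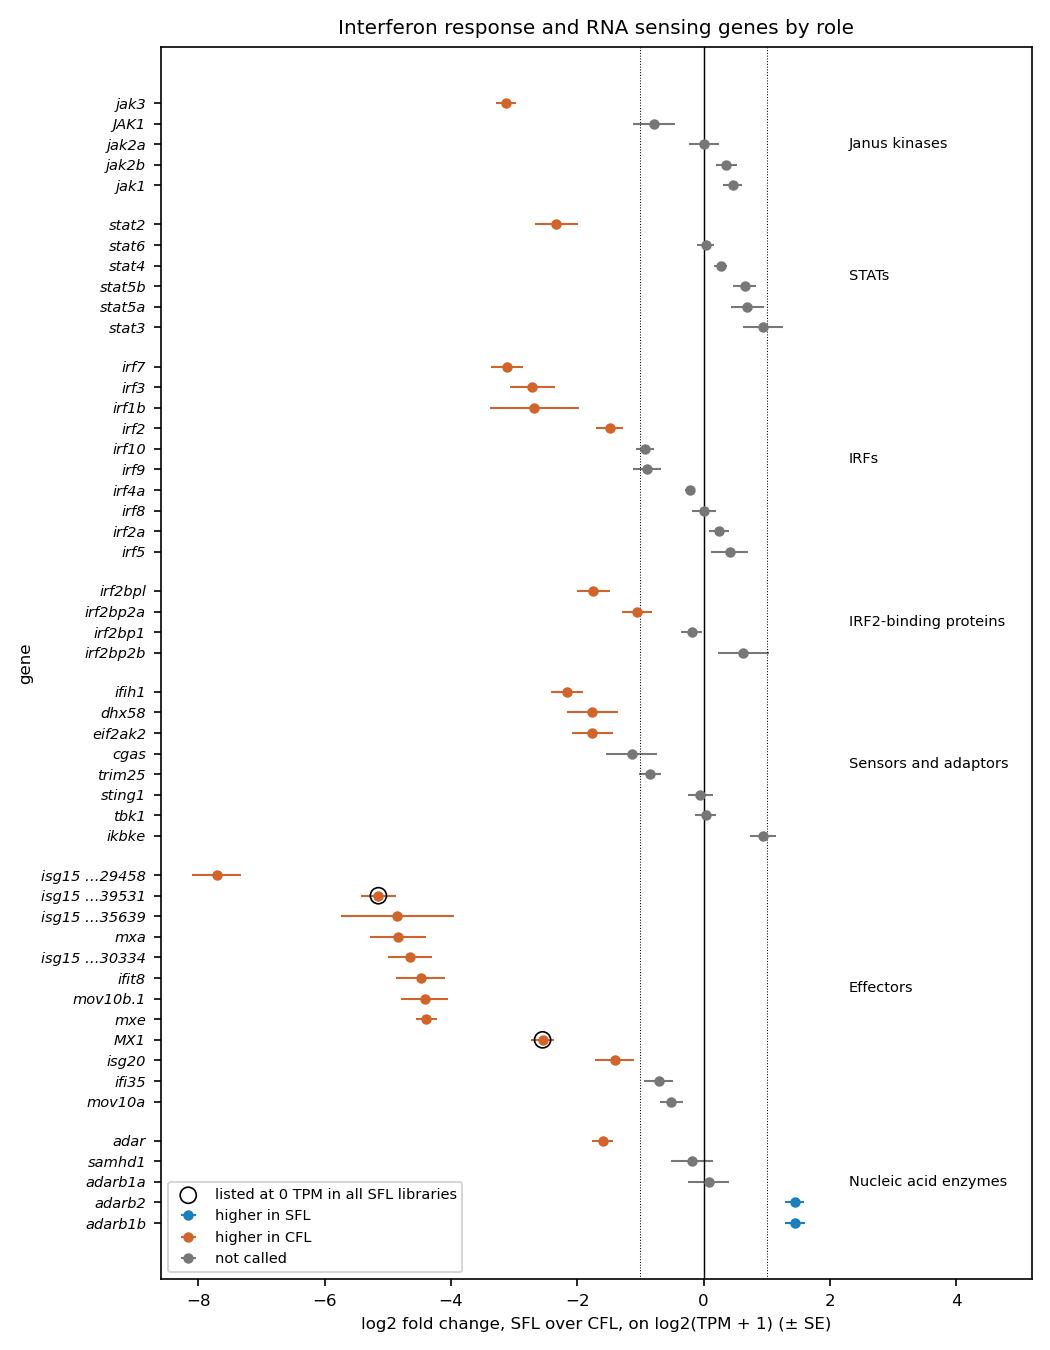
Log2 fold change of SFL over CFL (x axis, on log2(TPM + 1)) with its standard error for 50 of the 52 tested genes, grouped by role, with dotted lines at a fold change of 2. The 12 tested effectors lie left of 0, whereas the Janus kinases and STATs lie on both sides. Among these effectors, *mxe*, *MX1* and the *isg15* row ENSAMXG00000039531 passed the filter through CFL alone. Ringed genes were listed at 0 TPM in all SFL libraries.

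The effectors, grouped here as mostly interferon-stimulated antiviral genes, had the most negative median log2 fold change of the roles (-4.45). Of 15 effector rows, 12 were tested and 10 were lower in SFL (8.88% of all tested genes). In all 12 the SFL libraries lay under the CFL libraries (23.1% of all tested genes). Of these, *mxe*, *MX1* and the *isg15* row ENSAMXG00000039531 passed the filter through CFL alone, where they were bound to have their highest value. They are counted in the 12, in the 10 and in the median. The 10 also hold several rows of the same families, namely the 4 *isg15* rows and *mxa*, *mxe* and *MX1*. ISG15 is a small ubiquitin-like protein that is coupled to other proteins after interferon exposure. The table has 4 rows with this symbol. The row ENSAMXG00000029458 had 0, 0.47 and 0 TPM in SFL replicates 1, 2 and 3, against 287, 349.5 and 132 TPM in CFL replicates 1, 2 and 3. The log2 fold change, -7.71 (SE 0.39, adjusted p = 5.06e-05), was the most negative among the 52 genes. The row ENSAMXG00000030334 had 1.38, 2.08 and 2.89 TPM in SFL, against 85.0, 110.3 and 46.3 TPM in CFL (log2 fold change -4.65, SE 0.35, adjusted p = 0.000209). The row ENSAMXG00000035639 had 1.64, 0.99 and 0.26 TPM in SFL, against 107, 124 and 10.7 TPM in CFL (log2 fold change -4.85, SE 0.90, adjusted p = 0.00742). Its SE was the largest of the 4 rows, and CFL replicate 3 stood far below the other CFL libraries. The row ENSAMXG00000039531 was listed at 0 TPM in every SFL library and had 28.1, 52.9 and 27.7 TPM in CFL (limma adjusted p = 6.03e-05). How reads shared by these copies were divided is not known, so the sum over the 4 rows is safer than any one of them. That sum was 3.02, 3.54 and 3.15 TPM in SFL, against 507, 637 and 216 TPM in CFL. The 4 rows held between 0.352% and 0.507% of the summed level of the 58 genes in SFL, and between 15.8% and 29.6% in CFL.

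Mx proteins are dynamin-like GTPases that block the replication of many viruses. *mxa* (ENSAMXG00000009202) had 0.18, 0.25 and 0.20 TPM in SFL, against 45.8, 52.7 and 15.7 TPM in CFL (log2 fold change -4.84, SE 0.44, adjusted p = 0.000431). *mxe* (ENSAMXG00000002138) had 0.02, 0.06 and 0.13 TPM in SFL, against 21.1, 21.5 and 21.6 TPM in CFL (log2 fold change -4.39, SE 0.16, adjusted p = 2.14e-05). The CFL libraries were thus nearly equal for *mxe* and spread widely for *mxa*. *MX1* (ENSAMXG00000044008) was listed at 0 TPM in every SFL library and had 4.93, 6.02 and 3.78 TPM in CFL (limma adjusted p = 0.00014). *mxf* reached no more than 0.10 TPM in any library of either line. The sum of the 4 *mx* rows was 0.20, 0.41 and 0.33 TPM in SFL, against 71.7, 80.2 and 41.2 TPM in CFL.

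Among the other effectors, *ifit8* (ENSAMXG00000032260), of a family that binds viral RNA ends, had 0.33, 0.50 and 0.87 TPM in SFL, against 40.0, 51.5 and 18.3 TPM in CFL (log2 fold change -4.48, SE 0.39, adjusted p = 0.000357). *mov10b.1* (ENSAMXG00000000035), named for the RNA helicase MOV10, had 0.59, 1.59 and 3.39 TPM in SFL, against 56.2, 61.5 and 48.2 TPM in CFL (log2 fold change -4.42, SE 0.37, adjusted p = 0.000309). Its relative *mov10a* (ENSAMXG00000016524) had 4.95, 5.95 and 5.44 TPM in SFL, against 9.64, 7.44 and 7.55 TPM in CFL, and was not called (adjusted p = 0.0728). *isg20* (ENSAMXG00000041093), an exonuclease gene, was detected throughout, with 22.2, 35.9 and 16.8 TPM in SFL, against 56.1, 83.3 and 58.0 TPM in CFL (log2 fold change -1.41, SE 0.31, adjusted p = 0.0138). Without CFL replicate 2 it was no longer called (adjusted p = 0.0593). *ifi35* had 16.95 to 22.86 TPM in SFL, against 24.5 to 40.1 TPM in CFL, and narrowly missed the threshold (adjusted p = 0.0546).

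Not every interferon-stimulated gene was high in CFL. *rsad2* (ENSAMXG00000017272) encodes viperin, an antiviral enzyme that interferon induces strongly in fish and mammals. It had 0, 0.04 and 0 TPM in SFL, against 0, 0.04 and 0.04 TPM in CFL. *cmpk2* (ENSAMXG00000030357), which was not chosen by the symbols above, had 0.03, 0.03 and 0 TPM in SFL, against 0.01, 0 and 0.01 TPM in CFL. In the AstMex3_surface assembly *cmpk2* and *rsad2* are neighbors, with 0 protein-coding genes between them. Both were near 0 in the same CFL libraries that had 216 to 637 TPM of *isg15*.

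**Figure D2:**
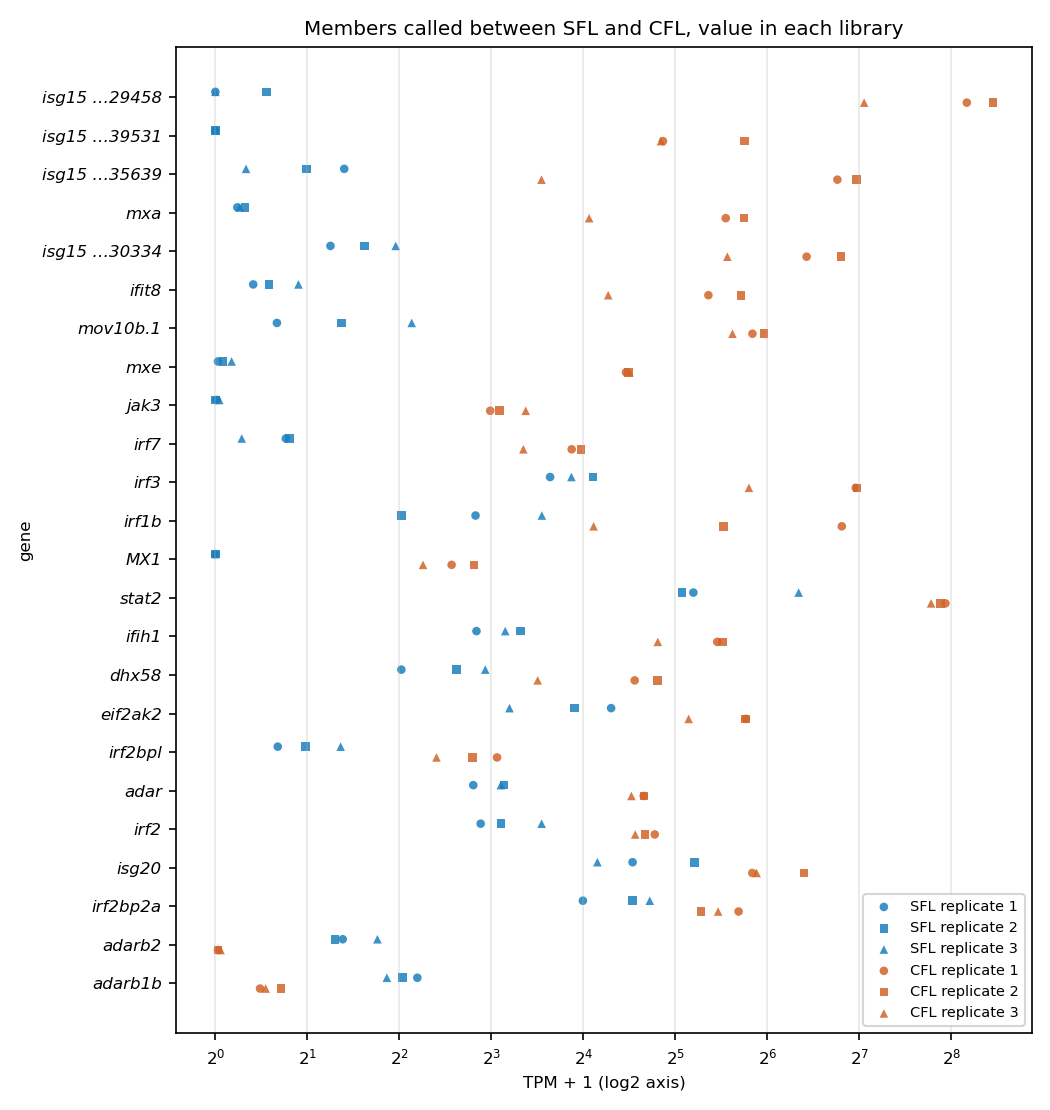
TPM + 1 (x axis, log2) in each SFL library (blue) and CFL library (orange) for 24 of the 25 called genes (rows), ordered by log2 fold change, with a marker shape per replicate. In all 24 genes the libraries of the lines do not overlap. Of all genes called higher in CFL, the lines overlap in 1, so for such genes the separation adds almost nothing to the call. In 18 of the 22 genes higher in CFL the lowest CFL value is that of replicate 3.

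The JAKs transmit the signal of cytokine receptors, and 4 of the 5 rows were not called (14679 of all 18489 tested genes). *jak1* (ENSAMXG00000010587), a kinase of the interferon receptor, was the highest of the family, with 86.3, 91.3 and 100.8 TPM in SFL, against 65.5, 69.4 and 66.2 TPM in CFL. The log2 fold change, 0.46 (SE 0.15, adjusted p = 0.0493), was below a fold change of 2. A further row, *JAK1* (ENSAMXG00000018785), had 5.93, 3.67 and 8.92 TPM in SFL, against 12.8, 12.3 and 7.99 TPM in CFL, and the lines overlapped. Without SFL replicate 3 this row was called (log2 fold change -1.05, adjusted p = 0.0331). *jak2a* had 5.44 to 9.21 TPM in SFL, against 6.01 to 8.60 TPM in CFL. *jak2b* had 10.9 to 13.4 TPM in SFL, against 8.92 to 9.57 TPM in CFL (adjusted p = 0.136). The exception was *jak3* (ENSAMXG00000014455), which serves the receptors that share the common gamma chain. It had 0.01, 0 and 0.03 TPM in SFL, against 6.93, 7.52 and 9.36 TPM in CFL (log2 fold change -3.13, SE 0.16, adjusted p = 5.66e-05), and it was the only called gene of the family.

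Of 6 STAT genes described here, *stat2* was lower in SFL (8.88% of all tested genes) and 5 were not called (14679 of all 18489 tested genes). *stat2* (ENSAMXG00000013030) was the highest STAT in CFL, with 35.6, 32.6 and 80.0 TPM in SFL, against 244, 235 and 219 TPM in CFL (log2 fold change -2.33, SE 0.34, adjusted p = 0.00294). The CFL libraries were close to each other, whereas SFL replicate 3 was above the other SFL libraries.

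The 5 STATs of other cytokine routes were not called. *stat3* (ENSAMXG00000000502), which acts below interleukin-6 type receptors, had 32.7, 27.8 and 62.8 TPM in SFL, against 20.6, 19.7 and 18.4 TPM in CFL (log2 fold change 0.94, SE 0.31, adjusted p = 0.0527). Without SFL replicate 2 it was called (log2 fold change 1.17, adjusted p = 0.0372). *stat5b* (ENSAMXG00000013978), below growth hormone and prolactin receptors, had 32.8, 43.2 and 34.6 TPM in SFL, against 25.4, 21.95 and 21.9 TPM in CFL (log2 fold change 0.65, SE 0.18, adjusted p = 0.03), which was below a fold change of 2. *stat5a* had 4.55 to 8.89 TPM in SFL, against 3.25 to 4.43 TPM in CFL (adjusted p = 0.0797). *stat6* (ENSAMXG00000040035), below the interleukin-4 receptor, was the steadiest, with 69.3, 67.7 and 66.8 TPM in SFL, against 66.2, 67.0 and 66.8 TPM in CFL (log2 fold change 0.03, SE 0.14, adjusted p = 0.893). *stat4* had no more than 0.71 TPM in any library.

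IRFs bind the promoters of interferon genes and of interferon-stimulated genes. Of 13 IRF rows, 10 were tested and 4 were lower in SFL (8.88% of all tested genes). *irf3* (ENSAMXG00000021232), which is activated by TBK1, had 11.5, 16.2 and 13.6 TPM in SFL, against 124, 125 and 54.7 TPM in CFL (log2 fold change -2.71, SE 0.35, adjusted p = 0.00175). *irf7* (ENSAMXG00000016465), the interferon-induced partner of IRF3, was under 1 TPM in SFL, with 0.70, 0.75 and 0.22 TPM, against 13.7, 14.7 and 9.18 TPM in CFL (log2 fold change -3.11, SE 0.25, adjusted p = 0.000258). *irf1b* (ENSAMXG00000010595), named for the activator IRF1, was the most scattered IRF, with 6.10, 3.06 and 10.7 TPM in SFL, against 111, 44.9 and 16.3 TPM in CFL. The log2 fold change, -2.68 (SE 0.70, adjusted p = 0.0262), went from -3.37 to -2.02 when each library was left out. It was called in 2 of these 6 fits, those without SFL replicate 3 and without CFL replicate 3, and adjusted p reached 0.0834 without CFL replicate 2. *irf2* (ENSAMXG00000036672), named for a factor that competes with IRF1, had 6.38, 7.59 and 10.7 TPM in SFL, against 26.4, 24.4 and 22.6 TPM in CFL (log2 fold change -1.49, SE 0.22, adjusted p = 0.00287).

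The other tested IRFs were not called. *irf9* (ENSAMXG00000004911), a DNA-binding partner of STAT2, had 17.2, 11.5 and 11.9 TPM in SFL, against 25.8, 30.2 and 21.8 TPM in CFL. The lines did not overlap, but the log2 fold change of -0.90 (SE 0.22, adjusted p = 0.0212) was below a fold change of 2. It was called without SFL replicate 1 or without CFL replicate 3. *irf10* (ENSAMXG00000032414) had 0.03, 0 and 0.03 TPM in SFL, against 0.93, 1.3 and 0.64 TPM in CFL. Its adjusted p was 0.00338 with a log2 fold change of -0.93, which the scale holds down at this level, and with a pseudocount of 0.1 it was -3.10 (adjusted p = 0.000892). *irf5* had 11.4 to 23.6 TPM in SFL, against 10.5 to 14.9 TPM in CFL, and the lines overlapped. *irf2a* had 1.42 to 2.18 TPM in SFL, against 1.20 to 1.35 TPM in CFL. *irf8* and *irf4a*, which name IRFs of blood cells, stayed under 0.7 TPM in every library.

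Among the genes named for IRF2-binding proteins, *irf2bpl* (ENSAMXG00000035489) had 0.60, 0.97 and 1.57 TPM in SFL, against 7.35, 5.93 and 4.29 TPM in CFL (log2 fold change -1.75, SE 0.26, adjusted p = 0.00303). *irf2bp2a* (ENSAMXG00000003653) had 14.9, 22.2 and 25.4 TPM in SFL, against 50.5, 37.8 and 43.2 TPM in CFL (log2 fold change -1.06, SE 0.24, adjusted p = 0.015). It lay just over a fold change of 2 and was not called without SFL replicate 1 or without CFL replicate 1. *irf2bp1* and *irf2bp2b* were not called, at 28.0 to 35.3 and 66.6 to 205 TPM in SFL, against 32.04 to 39.3 and 57.3 to 77.8 TPM in CFL.

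**Figure D3:**
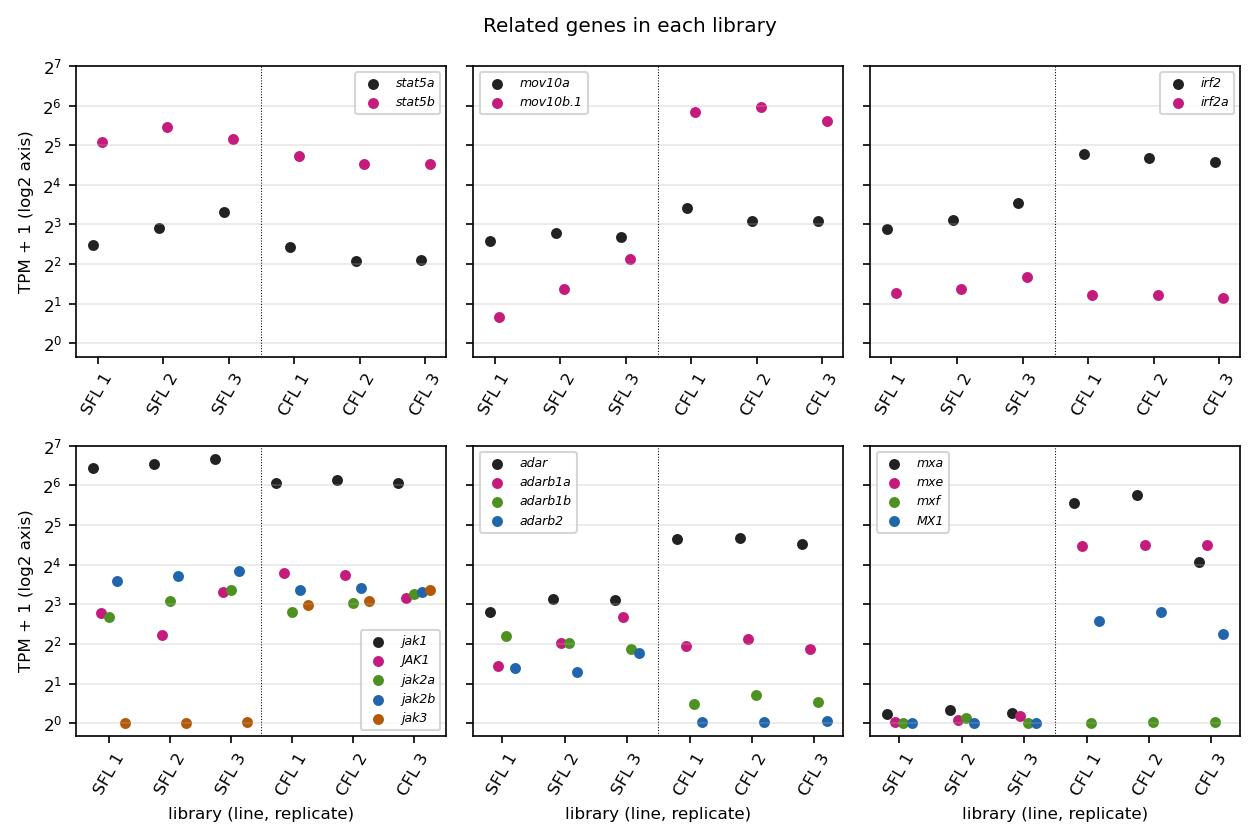
TPM + 1 (y axis, log2) of related genes in each library (x axis), with SFL left and CFL right of the dotted line. *jak3* stays at or under 0.03 TPM and *mov10b.1* at or under 3.39 TPM in SFL, and both are higher in CFL, while *mov10a* and *jak1* have 4.95 TPM or more in all 6 libraries. *adarb1b* and *adarb2* run the other way from *adar*.

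Of 8 sensor and adaptor genes, the 3 whose products bind double-stranded RNA were lower in SFL (8.88% of all tested genes). *ifih1* (ENSAMXG00000010023), the gene of MDA5, had 6.15, 8.97 and 7.88 TPM in SFL, against 42.9, 44.7 and 27.0 TPM in CFL (log2 fold change -2.16, SE 0.25, adjusted p = 0.00121). *dhx58* (ENSAMXG00000030658), the gene of LGP2, had 3.06, 5.16 and 6.64 TPM in SFL, against 22.6, 27.0 and 10.3 TPM in CFL (log2 fold change -1.76, SE 0.40, adjusted p = 0.0157). It was no longer called without CFL replicate 1 (adjusted p = 0.0631) or without CFL replicate 2 (adjusted p = 0.0626). *eif2ak2* (ENSAMXG00000003716) encodes PKR, a kinase that halts translation when it binds double-stranded RNA. It had 18.7, 14.0 and 8.17 TPM in SFL, against 53.4, 53.3 and 34.4 TPM in CFL (log2 fold change -1.76, SE 0.33, adjusted p = 0.00762).

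The other 5 of the 8 sensor and adaptor genes were not called (14679 of all 18489 tested genes). *tbk1* (ENSAMXG00000000745) had 13.1, 14.5 and 17.4 TPM in SFL, against 14.2, 14.6 and 14.8 TPM in CFL (log2 fold change 0.03, SE 0.17, adjusted p = 0.894). *sting1* (ENSAMXG00000035008) had 4.11, 4.04 and 2.94 TPM in SFL, against 3.23, 3.97 and 4.39 TPM in CFL (log2 fold change -0.05, SE 0.20, adjusted p = 0.852). The lines overlapped in both genes. *ikbke* (ENSAMXG00000007271), the gene of IKKε, was the one gene of this group with SFL above CFL, with 4.23, 3.69 and 5.34 TPM in SFL, against 1.32, 1.81 and 2.37 TPM in CFL. The log2 fold change, 0.94 (SE 0.21, adjusted p = 0.016), was just below a fold change of 2, and it was called without SFL replicate 2, without CFL replicate 3, and with a pseudocount of 0.5 (log2 fold change 1.09, adjusted p = 0.0159). *trim25* (ENSAMXG00000006132), whose product activates RIG-I in mammals, had 21.8, 19.8 and 20.7 TPM in SFL, against 34.2, 46.8 and 34.9 TPM in CFL. The log2 fold change, -0.85 (SE 0.18, adjusted p = 0.0125), was also below a fold change of 2.

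*cgas* (ENSAMXG00000036028), the DNA sensor, had 0.19, 0.22 and 0.21 TPM in SFL, against 3.04, 2.45 and 0.34 TPM in CFL. The lines did not overlap, but CFL replicate 3 was close to SFL and the gene was not called (log2 fold change -1.14, SE 0.40, adjusted p = 0.0649). Without CFL replicate 3 it was called (log2 fold change -1.63, adjusted p = 0.00121).

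The adenosine deaminases that act on RNA moved in opposite directions. ADAR (*adar*) edits adenosine to inosine in double-stranded RNA and has an interferon-induced form in mammals. *adar* (ENSAMXG00000016460) had 5.98, 7.79 and 7.59 TPM in SFL, against 24.2, 24.3 and 21.97 TPM in CFL (log2 fold change -1.60, SE 0.17, adjusted p = 0.000911). The adarb genes are named for ADARB1 and ADARB2, best known from the nervous system and not part of the interferon response. *adarb1b* (ENSAMXG00000018363) was higher in SFL, with 3.58, 3.09 and 2.64 TPM, against 0.40, 0.64 and 0.46 TPM in CFL (log2 fold change 1.45, SE 0.16, adjusted p = 0.000861). *adarb2* (ENSAMXG00000040561) was higher in SFL as well, with 1.61, 1.46 and 2.39 TPM, against 0.02, 0.02 and 0.04 TPM in CFL (log2 fold change 1.44, SE 0.15, adjusted p = 0.000728). They were the 2 genes called higher in SFL among the 58. *adarb1a* overlapped, at 1.74 to 5.46 TPM in SFL, against 2.64 to 3.35 TPM in CFL. *samhd1* (ENSAMXG00000036251), which depletes the nucleotides that viruses need, had 15.1, 22.5 and 8.65 TPM in SFL, against 16.4, 18.3 and 14.7 TPM in CFL, and the lines overlapped (adjusted p = 0.699).

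The CFL libraries were not alike for these genes. In 19 of the 23 genes lower in SFL, CFL replicate 3 was the lowest CFL library (82.6%), against 52.3% of all genes called higher in CFL and 41.6% of all tested genes. The level in CFL replicate 3 relative to the mean of CFL replicates 1 and 2 had a median of 0.646 over the 23 genes, against 0.89 over all genes called higher in CFL. It was 0.0921 for the *isg15* row ENSAMXG00000035639, 0.209 for *irf1b*, 0.319 for *mxa* and 0.4 for *ifit8*. It was 0.913 for *stat2*, 0.906 for *adar*, 1.02 for *mxe* and 1.3 for *jak3*. *mxa* and *mxe*, with log2 fold changes of -4.84 and -4.39 between the lines, thus varied within CFL by very different amounts. CFL replicate 2 was taken at the same passage as replicate 3. In bulk libraries, fewer cells with a high level and a lower level per cell cannot be told apart. All 23 were called without CFL replicate 3, which was the lowest CFL library in 19 of them, so this fit was unlikely to lose a call. Without CFL replicate 1, 20 of the 23 were called, and without CFL replicate 2 also 20. Every one of the 23 genes had CFL replicate 3 above every SFL library. Of all genes called higher in CFL, the lines overlapped in 1, so the separation adds almost nothing to the call.

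**Figure D4:**
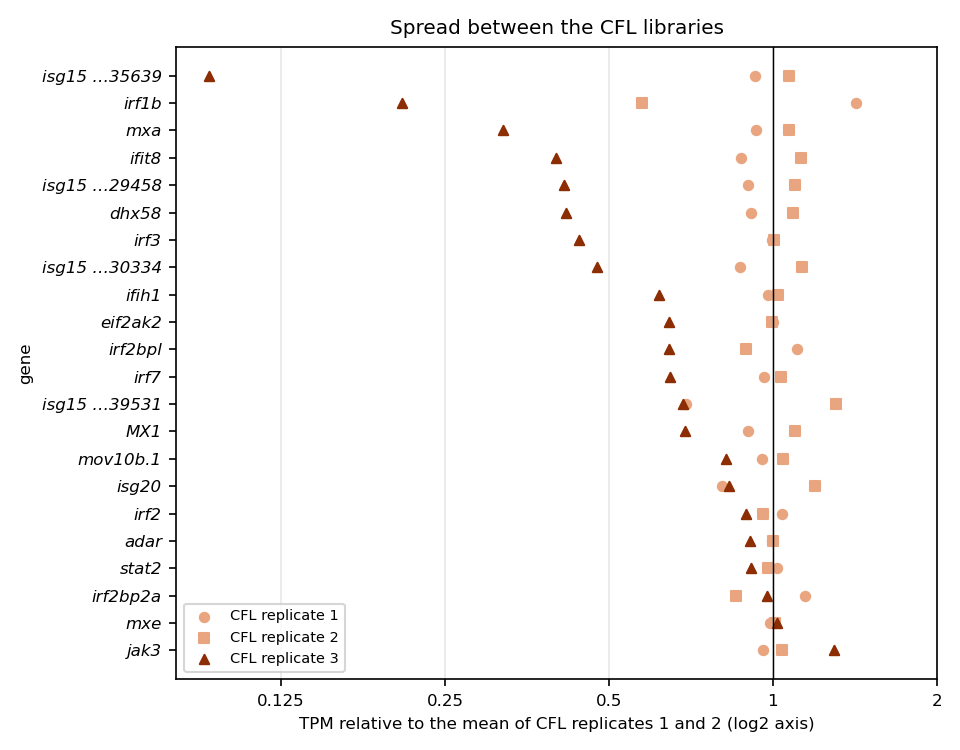
TPM in each CFL library relative to the mean of CFL replicates 1 and 2 (x axis, log2) for 22 of the 23 genes lower in SFL (rows). CFL replicate 3 (dark triangles) ranges from 0.0921 for one *isg15* row to 1.3 for *jak3*.

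Leukocytes are rich in many of these transcripts, and most of their markers were low in both lines. Of 15 leukocyte marker rows, 12 were under 1 TPM in all 6 libraries, and *PTPRC*, the pan-leukocyte antigen CD45, had 0.07 to 0.21 TPM in SFL, against 0.03 to 0.09 TPM in CFL. Of the other 3 rows, *csf1ra*, a macrophage receptor gene, was listed at 0 TPM in every SFL library and had 0.64, 0.83 and 1.01 TPM in CFL, and *cybb*, a phagocyte oxidase gene, had 1.25, 0.11 and 0.15 TPM in SFL and was listed at 0 TPM in every CFL library. The third, a row named *MPEG1* (ENSAMXG00000015353), had 28.2, 21.3 and 32.8 TPM in SFL, against 46.02, 41.7 and 112 TPM in CFL. Its CFL libraries lay above its SFL libraries (23.1% of all tested genes), and it was not called (limma adjusted p = 0.0662). All leukocyte markers summed to 22 to 33.5 TPM in SFL, against 43.2 to 113.3 TPM in CFL, most of it from this *MPEG1* row. Without this row they came to 0.72 to 1.61 TPM in SFL, against 1.52 to 1.77 TPM in CFL. Markers of stellate cells or fibroblasts summed to 351 to 1458 TPM in SFL, against 667 to 1294 TPM in CFL. Of 8 tested rows of that list, *pdgfra* and *pdgfrb* were lower in SFL (8.88% of all tested genes). *col1a1a* was higher in SFL (11.7% of all tested genes) and 5 were not called (14679 of all 18489 tested genes). *pdgfra* had 0.43 to 1.47 TPM in SFL, against 18.9 to 23.8 TPM in CFL, and *col1a1a* had 194 to 386 TPM in SFL, against 43.2 to 102.2 TPM in CFL. Markers of simple epithelium and cholangiocytes summed to 7886 to 11405 TPM in SFL, against 1479 to 1838 TPM in CFL. Of 8 tested rows of that list, 6 were higher in SFL (11.7% of all tested genes), *krt4*, *krt18a.1* and *krt18b* among them. The 2 others were lower in SFL (8.88% of all tested genes). *hnf1bb* had 2.29 to 12.31 TPM in SFL, against 163 to 210 TPM in CFL, and *sox9a* had 0.63 to 0.81 TPM in SFL, against 27.6 to 49.4 TPM in CFL. Endothelial markers summed to 76.2 to 90.2 TPM in SFL, against 52.4 to 71.3 TPM in CFL. Nearly all of this was *kdrl*, at 75.8 to 88.9 TPM in SFL, against 51.9 to 71.1 TPM in CFL. Of the 6 endothelial rows, 4 were under 1 TPM in all libraries, *pecam1* and *cdh5* among them. The part of these differences in cell character in the levels of the interferon genes was not tested.

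Other genes of the pathway, whose symbols were not in the rule, were compared from lists by role. Of 109 rows 98 were tested, 17 were lower in SFL (8.88% of all tested genes) and 5 were higher in SFL (11.7% of all tested genes). Their median log2 fold change was -0.13, against 0.07 over all tested genes. Of the 98, 5 passed the filter through CFL alone and 2 through SFL alone, where they were bound to have their highest value. Among those called, they were *nlrx1*, the *parp12a* row ENSAMXG00000043787 and the *tap2a* row ENSAMXG00000014061. *ifnphi1* (ENSAMXG00000000450), the row named for a type I interferon of fish, had 0.63, 1.04 and 1.01 TPM in SFL, against 7.60, 5.23 and 3.60 TPM in CFL (log2 fold change -1.73, SE 0.26, adjusted p = 0.00322). The transcript of this ligand was thus lower in SFL, where it was near 1 TPM, and its protein was not measured. *ifng1*, the row named for interferon gamma, was listed at 0 TPM in all 6 libraries. Among the receptor genes, *ifngr1* (ENSAMXG00000032169) was higher in SFL, with 27.9, 22.6 and 38.6 TPM, against 8.27, 13.2 and 18.4 TPM in CFL (log2 fold change 1.14, SE 0.32, adjusted p = 0.0347). *il10ra* (ENSAMXG00000042331) was lower in SFL, with 1.94, 7.63 and 5.14 TPM, against 22.03, 25.95 and 77.02 TPM in CFL (log2 fold change -2.76, SE 0.57, adjusted p = 0.0113), and CFL replicate 3 was the highest. *socs3a*, a feedback inhibitor of JAKs, had the highest mean TPM among the regulators and cytokine receptors of the JAK-STAT route and was not called, at 96.2 to 186 TPM in SFL, against 95.6 to 131 TPM in CFL. *cish* and *ptpn11b*, regulators of cytokine signaling, were higher in SFL (log2 fold changes 1.29 and 1.56, adjusted p = 0.0408 and 0.0282). With each library left out in turn, *il10ra* was called in 6 of 6 fits, and the 3 calls higher in SFL were each lost in 4 or more fits. *cish* was called in 1 of 6 fits, the one without SFL replicate 2. *ifngr1* was called in 2 of 6, those without SFL replicate 2 and without CFL replicate 3, and *ptpn11b* in 2 of 6, those without SFL replicate 1 and without SFL replicate 3.

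A further list held adaptors and kinases below the sensors, together with RNA polymerase III subunits, helicases and other genes. Of its 30 tested rows, 29 were not called (14679 of all 18489 tested genes) and the median log2 fold change was 0.00. The exception was *nlrx1* (ENSAMXG00000001466), named for a mitochondrial protein that dampens MAVS signaling, with 0.05, 0.03 and 0.03 TPM in SFL, against 7.31, 8.16 and 18.2 TPM in CFL (log2 fold change -3.45, SE 0.33, adjusted p = 0.000524). The highest of this list, *g3bp1*, a stress granule gene, had 161 to 324 TPM in SFL, against 415 to 458 TPM in CFL. Its log2 fold change, -0.94 (adjusted p = 0.0331), was below a fold change of 2. Of 4 tested endosomal receptor and adaptor genes limma called 0, and 14679 of all 18489 tested genes were not called. Of the 4, *tlr3* and *tlr8a* had an unadjusted p under 0.05, as had 8590 of all 18489 tested genes. *tlr3* had 3.01 to 4.73 TPM in SFL, against 1.84 to 2.48 TPM in CFL, *myd88* was the highest of this list, at 12.9 to 26.3 TPM in SFL, against 11.1 to 16.3 TPM in CFL, and *tlr7*, *tlr9*, *tlr21* and *tlr22* were under 0.2 TPM throughout.

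Of 27 tested antiviral effectors beyond the rule, 7 were lower in SFL (8.88% of all tested genes) and 2 were higher in SFL (11.7% of all tested genes), and the median log2 fold change was -0.16. *helz2* (ENSAMXG00000017465), a helicase gene, had 1.66, 1.76 and 2.33 TPM in SFL, against 48.5, 50.98 and 13.4 TPM in CFL (log2 fold change -3.52, SE 0.50, adjusted p = 0.00255). *epsti1*, *znfx1*, *parp9*, *xaf1*, *rnf213b* and the *parp12a* row ENSAMXG00000043787 were lower as well, with log2 fold changes from -2.46 to -1.13. This *parp12a* row had 0.06 to 0.14 TPM in SFL, against 0.65 to 1.98 TPM in CFL. The more abundant *parp12a* row, ENSAMXG00000001021, had 9.05 to 14.07 TPM in SFL, against 14.76 to 31.33 TPM in CFL. It was not called (log2 fold change -0.97, adjusted p = 0.0536). *herc3* and *cnp* were higher in SFL (log2 fold changes 1.55 and 1.23, adjusted p = 0.00102 and 0.0168). *cnp* was not called without SFL replicate 3, without CFL replicate 2 or without CFL replicate 3. The *parp12a* row ENSAMXG00000043787 was not called without CFL replicate 2. *ddx21*, an RNA helicase gene that also acts in ribosome production, was the highest of this list, at 207 to 322 TPM in SFL, against 332 to 397 TPM in CFL, and was not called.

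Interferon also raises the genes that make and carry peptides to MHC class I molecules. A list of interferon-inducible antigen presentation genes had 18 rows, all tested, of which 7 were lower in SFL (8.88% of all tested genes). Its median log2 fold change was -0.73. The list also held *ciita* and *cd74a*, genes of MHC class II, and neither was called. *psmb8a* (ENSAMXG00000014118), an immunoproteasome subunit, had 88.8, 92.7 and 82.7 TPM in SFL, against 386, 387 and 254 TPM in CFL (log2 fold change -1.92, SE 0.21, adjusted p = 0.000908). The *tap2a* row ENSAMXG00000014061, named for a peptide transporter subunit, had 0.05, 0 and 0.06 TPM in SFL, against 24.8, 34.2 and 15.6 TPM in CFL (log2 fold change -4.57, SE 0.29, adjusted p = 0.000101). A second *tap2a* row, ENSAMXG00000032662, *psmb13a* and *psmb9a* were lower in SFL too, with log2 fold changes of -2.25, -2.48 and -1.15. The transporter rows *tap1* and *tap2t* overlapped between the lines and were not called (adjusted p = 0.745 and 0.343). *tap1* had 12.5 to 19.6 TPM in SFL, against 14.2 to 18.9 TPM in CFL, and *tap2t* had 5.59 to 5.93 TPM in SFL, against 4.09 to 5.64 TPM in CFL. *psmb12* was not called, at 15.7 to 25.9 TPM in SFL, against 27.3 to 50.3 TPM in CFL (adjusted p = 0.0572). In the AstMex3_surface assembly, *tap2a*, *psmb9a*, *psmb12*, *psmb13a*, *psmb8a* and *tapbp.1* follow each other with 0 protein-coding genes between neighbors. *b2ml*, named for the light chain of MHC class I, was the highest of this list, with 258, 281 and 625 TPM in SFL, against 812, 1023 and 1074 TPM in CFL (log2 fold change -1.43, SE 0.35, adjusted p = 0.0214). It was called in 1 of 6 fits with a library left out, the one without SFL replicate 3. *pdia3*, which helps load peptides, was at 313 to 488 TPM in SFL, against 806 to 1018 TPM in CFL (log2 fold change -1.16, adjusted p = 0.00728). *pdia3* was not called without SFL replicate 1, nor *psmb9a* without SFL replicate 1, CFL replicate 1 or CFL replicate 2.

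**Figure D5:**
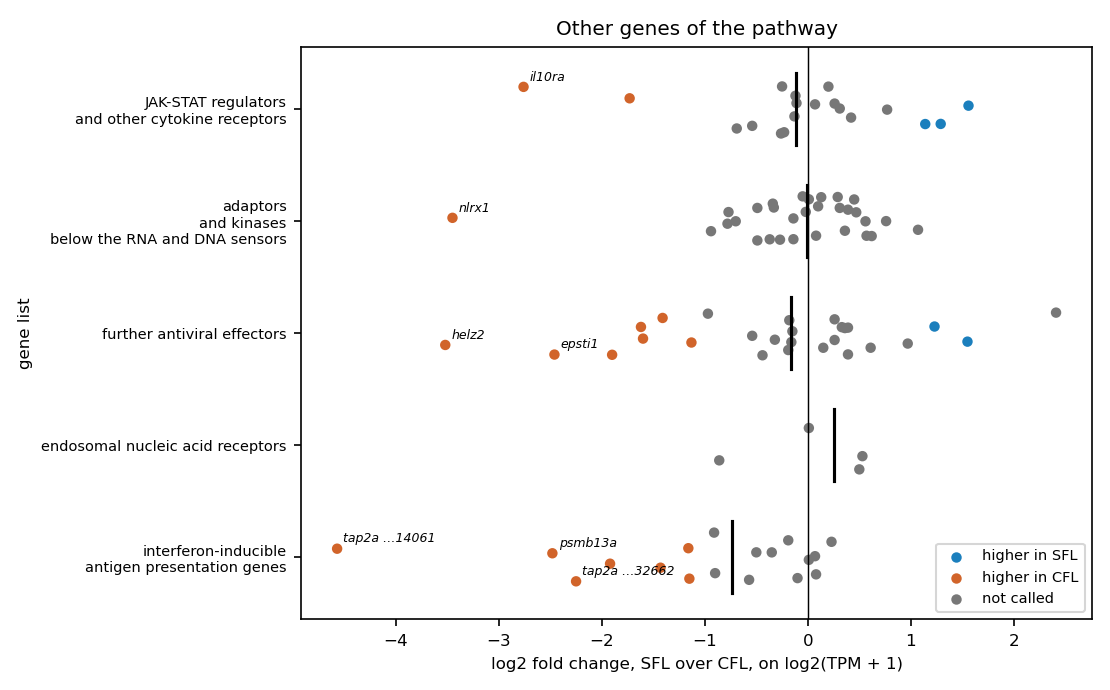
Log2 fold change of SFL over CFL (x axis, on log2(TPM + 1)) for the tested genes of 5 further lists (rows), with a black bar at each median. The list labeled adaptors and kinases, which also holds other genes, centers on 0.00 with *nlrx1* apart. The antigen presentation genes have a median of -0.73.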

How the data were processed

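Bulk RNA-seq was done on 3 SFL and 3 CFL libraries (poly(A) RNA, 75 bp single reads of a stranded kit). The authors aligned reads with STAR (version 2.7.3a in the submitters' processing notes) to a UCSC genome, assembly not given in the sources used here, with Ensembl gene models, and deposited gene TPM estimated by RSEM. TPM holds no counts, so the authors' count test with edgeR was not repeated. All value columns matched a library.

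Members were the rows whose lower-case symbol matched a fixed pattern. The members, the pathway lists and the marker lists were chosen with earlier results of these data known. log2(TPM + 1) of the genes reaching 0.2 TPM in any library was fitted with limma 3.58.1 (lmFit, eBayes with a trend) in R 4.3.3, with no block, and adjusted by Benjamini-Hochberg over all 18489 genes. For a single gene, an exact permutation test of 3 against 3 cannot give p below 0.1. The code was tested on simulated data. Summaries used Python 3.11.15 with pandas 2.3.3.

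A few members are counted in the totals but are not reported here. Of the others, the text names every called member, members under 1 TPM in one line and over it in the other, the highest of each role, members of paralog families, the central sensors and factors, and of the further lists the called genes and the highest. *ifi35*, *ikbke*, *trim25*, *cmpk2*, *ifng1*, *tlr3* and other toll-like receptors were named after their values were seen. So were *psmb12*, *tap1*, *tap2t*, *ciita*, *cd74a*, the *parp12a* row ENSAMXG00000001021, *pdgfra*, *col1a1a* and other single markers. Gene neighborhood came from RefSeq AstMex3_surface, in which 47 of 55 member symbols were found, and was used for names and neighbors only. The fit was repeated with a replicate block, with median-ratio and quantile scaling, with pseudocounts of 0.1 and 0.5, unfiltered, with 1 TPM required in 3 or more libraries, without a trend, on the later passages alone, with no minimum fold, and with each library left out.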

Additional observations from a re-analysis of the deposited data

How the results depend on the processing

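The 23 members lower in SFL were all called again under both pseudocounts, both filters, both scalings, no trend and no fold threshold. With the later passages alone (2 libraries a line) 18 of the 23 were called, without *dhx58*, *irf1b*, *irf2bp2a*, *isg20* and the *isg15* row ENSAMXG00000035639. Leaving out each library gave 20 to 26 members lower in SFL, and 2 to 4 higher in SFL, the 4 without SFL replicate 2, with *ikbke* and *stat3* added. Over all genes these fits called 1278 to 1744 higher in CFL and 1716 to 2257 higher in SFL. With no minimum fold 5 members were higher in SFL, with *ikbke*, *jak1* and *stat5b* added, and 3610 of all 18489 genes were higher in SFL. Quantile normalization added *irf9* and *trim25* to those lower in SFL, and it called 1916 of all 18489 genes higher in CFL. Of the pathway genes beyond the rule, 5 were higher in SFL. This count was 3 with median-ratio scaling, 3 with quantile normalization and 3 with the later passages alone, and 1 to 6 with each library left out, lowest without CFL replicate 2. Over all genes, 2168 were called higher in SFL in the main fit. They were 1930 with median-ratio scaling, 1851 with quantile normalization and 1698 with the later passages alone. The median log2 fold change over all genes was 0.07, against -0.00 with median-ratio scaling and -0.02 with quantile normalization.

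Same-numbered libraries did not deviate together (correlations of -0.225, 0.078 and -0.074 for numbers 1, 2 and 3), so the numbers were not taken as pairs. With the replicate block the same 23 and 2 members were called.

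The sign turned in 7 members, none of them called. With median-ratio scaling and with quantile normalization the log2 fold change was -0.00 and -0.00 for *adarb1a*, -0.09 and -0.08 for *jak2a*, -0.08 and -0.10 for *stat6*, and -0.07 and -0.09 for *tbk1*. With each library left out it went from -0.23 to 0.38 for *adarb1a*, from -0.15 to 0.18 for *jak2a*, from -0.14 to 0.15 for *irf8*, from -0.48 to 0.16 for *samhd1*, from -0.15 to 0.07 for *sting1* and from -0.07 to 0.12 for *tbk1*. The cause of these changes was not tested. TPM carries no depth, so genes near 0 TPM have no counting limit here.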

Other observations

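A few other families that interferon or virus induces in fish or mammals were looked up after their values had been seen, and they are given as values only. *gig2o* (ENSAMXG00000025547) and *gig2p*, named for grass carp genes induced by a virus, were lower in SFL. *gig2o* had 0, 0.16 and 0.56 TPM in SFL, against 13.2, 15.1 and 5.26 TPM in CFL (adjusted p = 0.00139, log2 fold change -3.21, SE 0.39). *gig2p* lay just past both thresholds, with 3.03, 2.46 and 5.43 TPM in SFL, against 8.99, 10.8 and 5.61 TPM in CFL (adjusted p = 0.0455, log2 fold change -1.04, SE 0.32). *RNF213* (ENSAMXG00000018097), a large ubiquitin ligase gene, had 1.95, 2.24 and 4.21 TPM in SFL, against 26.7, 30.5 and 13.6 TPM in CFL (adjusted p = 0.00221, log2 fold change -2.67, SE 0.36).

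Of 4 rows named for *tnfsf10*, the death ligand TRAIL, 3 were lower in SFL (8.88% of all tested genes). *tnfsf10l4* (ENSAMXG00000038362) was the highest, with 14.4, 21.8 and 41.2 TPM in SFL, against 99.2, 93.7 and 66.9 TPM in CFL (adjusted p = 0.0116, log2 fold change -1.81, SE 0.38). *tnfsf10l* was not called, with 2.80, 8.21 and 17.3 TPM in SFL, against 18.1, 16.1 and 18.5 TPM in CFL. CFL replicate 3 was the lowest CFL library in both *gig2* rows and both *rnf213* rows, and in 1 of the 4 *tnfsf10* rows.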
